A study of Mus musculus with 4 samples.

Results

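The promoters of the HoxA cluster are followed here across one 2-colour promoter array per genotype, on which immunoprecipitated Ring1B DNA was read against input DNA. The members are the 9 genes Hoxa2, Hoxa3, Hoxa4, Hoxa5, Hoxa6, Hoxa9, Hoxa10, Hoxa11 and Hoxa13. They are HoxA genes with named probes on array design 1, and the rule that picks them reads gene names and no measured value. They are 9 of 18354 gene names in the series, and their 322 probes are among 462748 named probes. The series used 4 arrays of 2 designs, and the HoxA probes lie on design 1 only.

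The altered cells were fibroblasts of embryos homozygous for the substitution L307R in Phc2 (Phc2 L307R/L307R), and the cells they were set against were wild type. Both came from C57BL/6 mouse embryos at embryonic day 12.5 and were used at passage 2, and both were immunoprecipitated with a Ring1B antibody. Such fibroblasts are grown from embryonic tissue on gelatin and can hold cells of many body positions. There was 1 array per genotype, so no spread between cultures could be measured and no test was made. The labels do not say how many embryos stand behind an array.

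Ring1B is the ubiquitin ligase of Polycomb repressive complex 1 (PRC1), which marks histone H2A and keeps developmental genes silent. Phc2 is a polyhomeotic subunit of PRC1 whose SAM domain can join head to tail into polymers, and the series title connects that polymerisation with PRC1 clustering in the nucleus and with silencing. Hox genes encode homeodomain factors that lie in the order in which they are used along the body axis, and they are classical Polycomb targets. The comparison asks how Ring1B is spread over the HoxA promoters when Phc2 carries the substitution.

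RefSeq promoter sequences show how unlike these promoters are in CpG content, the sequence feature most often discussed for Polycomb binding in mammals. A table of 32851 mouse promoters of 300 bases, from 250 bases before to 50 after the start, had a median of 7 CG dinucleotides, with quartiles of 3 and 20. It held 9 promoters of 8 HoxA members, and their counts of CG were 9 for Hoxa2, 20 for Hoxa3, 29 for Hoxa5, 26 for Hoxa6, 4 for Hoxa9, 21 and 12 for the 2 promoters of Hoxa10, 15 for Hoxa11 and 45 for Hoxa13. The Hoxa3 promoter listed there, chr6:52213018-52213317, lies beyond those of Hoxa5 and Hoxa6. On the array the Hoxa3 probes lie before those of Hoxa5 and Hoxa6, so its CG count need not describe the region they measured. The 4 printed below are the anterior end of the cluster, the member with the lowest CG count, the one with the highest and one of the middle of the order, and each CG is in capitals. All lie on the minus strand of chromosome 6 in GRCm38.p6, and they are written 5′ to 3′ in the direction of the gene. Hoxa2 is at chr6:52164782-52165081, Hoxa5 at chr6:52204538-52204837, Hoxa9 at chr6:52227321-52227620 and Hoxa13 at chr6:52260831-52261130. The array's probe positions have no stated build, since the sources used here do not give it, and no position was converted between them.
Hoxa2: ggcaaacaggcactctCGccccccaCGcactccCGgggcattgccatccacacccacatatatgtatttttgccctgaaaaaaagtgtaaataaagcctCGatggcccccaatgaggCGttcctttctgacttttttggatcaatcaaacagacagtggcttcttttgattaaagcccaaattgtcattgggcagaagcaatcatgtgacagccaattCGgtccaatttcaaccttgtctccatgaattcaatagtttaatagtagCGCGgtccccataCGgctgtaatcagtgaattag
Hoxa5: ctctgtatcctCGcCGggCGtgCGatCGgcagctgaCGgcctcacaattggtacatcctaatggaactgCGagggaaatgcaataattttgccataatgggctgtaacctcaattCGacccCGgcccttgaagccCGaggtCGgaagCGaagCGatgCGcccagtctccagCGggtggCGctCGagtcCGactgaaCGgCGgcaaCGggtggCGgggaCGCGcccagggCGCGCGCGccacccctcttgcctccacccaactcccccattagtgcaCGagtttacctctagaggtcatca
Hoxa9: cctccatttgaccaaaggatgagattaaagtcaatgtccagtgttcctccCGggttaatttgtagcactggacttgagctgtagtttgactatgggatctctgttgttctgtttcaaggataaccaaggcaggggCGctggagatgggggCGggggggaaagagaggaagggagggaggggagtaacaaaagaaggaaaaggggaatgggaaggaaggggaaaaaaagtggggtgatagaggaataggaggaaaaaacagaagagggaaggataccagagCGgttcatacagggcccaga
Hoxa13: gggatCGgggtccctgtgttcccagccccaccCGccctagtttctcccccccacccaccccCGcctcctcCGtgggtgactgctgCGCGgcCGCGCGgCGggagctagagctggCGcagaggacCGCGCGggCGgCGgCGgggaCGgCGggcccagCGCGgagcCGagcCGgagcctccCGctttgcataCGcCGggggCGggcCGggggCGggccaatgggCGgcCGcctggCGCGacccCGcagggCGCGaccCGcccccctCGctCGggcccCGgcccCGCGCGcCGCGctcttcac
The Hoxa13 promoter was 81.0% G and C, and its CG count stood at percentile 98.1 of the table, while the Hoxa9 promoter stood at percentile 31.4. The motif CCATNTT, the core bound by the zinc finger protein Yy1, was found on neither strand of the 9 HoxA promoters (0 of 9), and 16.1% of all promoters in the table held it.

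In the positions of the files, the cluster ran over chr6:52092098-52195944, a stretch of 103.8 kb. Probes were 45 to 60 bases long with a median spacing of 171 bp, and the widest stretch with no probe of a member was 21.6 kb, between Hoxa2 and the probes of Hoxa3 and Hoxa4. The wild-type array had 2 of the 322 probes flagged as outliers, which left 320. The values below are log2 ratios of Ring1B immunoprecipitate over input, centred on the median of each array, so 0 is the level of the typical probe and 1 is 2-fold above it. Probe noise was taken as the SD of the differences between neighbouring probes of a gene, divided by the square root of 2. Over all named probes of array design 1 it was 0.50 in Phc2 L307R, 0.46 in wild type and 0.49 for the genotype difference. Input signal was not well above background at 82 HoxA probes (25.6%) in Phc2 L307R and 44 (13.8%) in wild type. The 2 arrays were scanned on different days, so scan and genotype cannot be told apart.

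Ring1B covered most probes of the cluster in both genotypes. In Phc2 L307R 301 of 320 probes (94.1%) stood at 1 or more, where 12.7% of all named probes of the design did. In wild type 265 probes (82.8%) did, where 14.2% of all named probes did. Probes at 3 or more numbered 71 (22.2%) in each genotype, against 0.673% of all named probes in Phc2 L307R and 0.867% in wild type. The median HoxA probe was 2.27 in Phc2 L307R and 1.88 in wild type. The shape of the profile was alike, with Pearson and Spearman correlations of 0.75 over 320 probes, which are neighbours on one pair of arrays and share probe sequence and input composition.

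**Figure D1:**
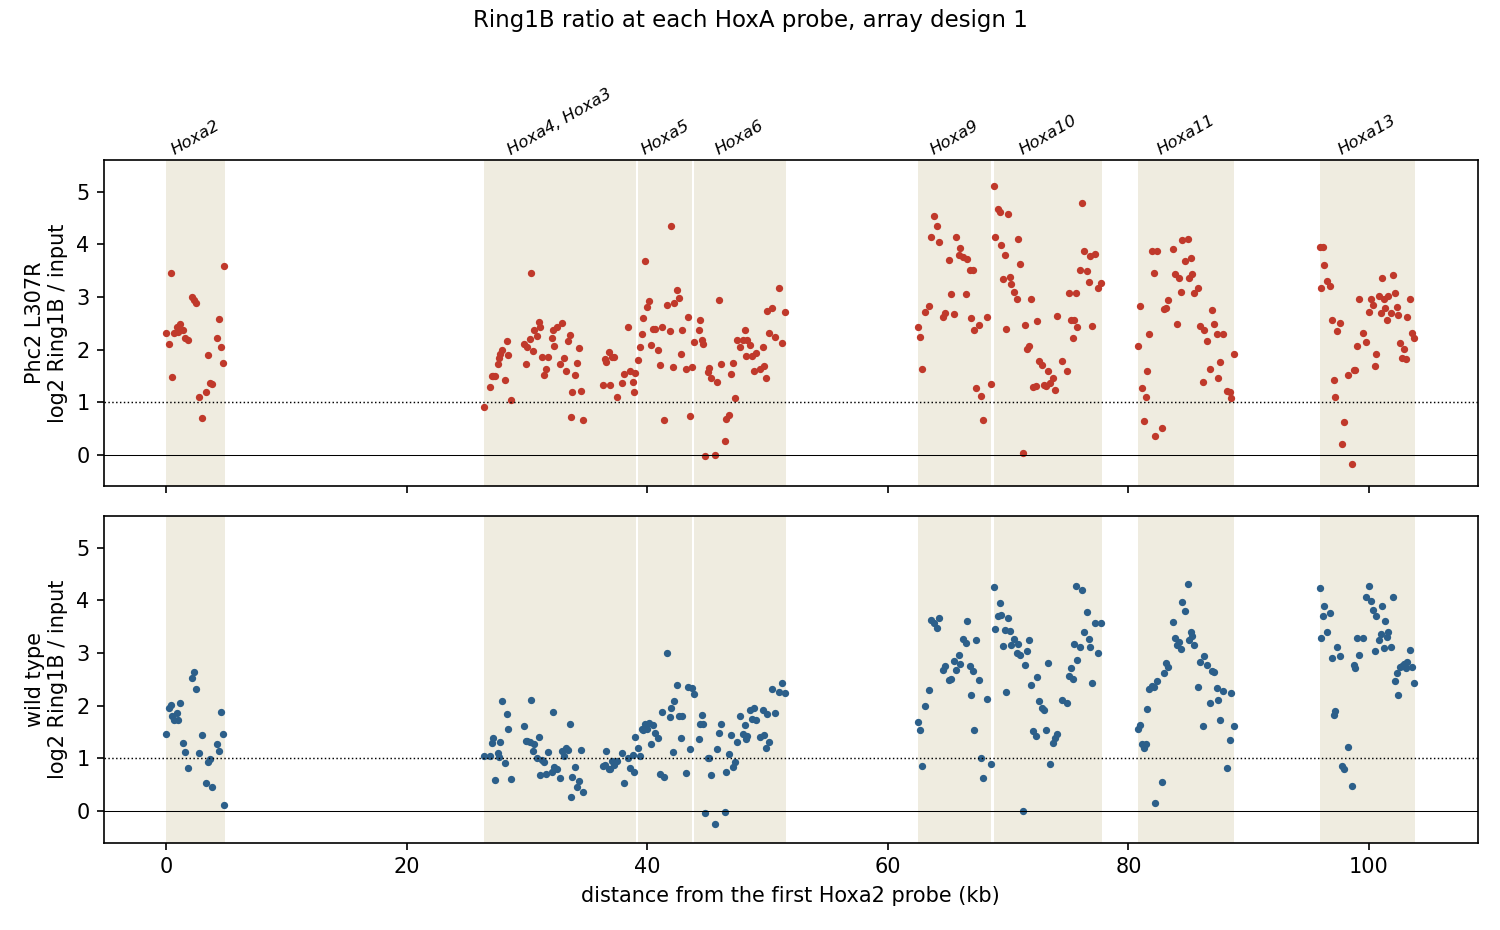
The log2 ratio of Ring1B over input at each of 320 HoxA probes (points) is plotted against distance in kb from the first Hoxa2 probe, with Phc2 L307R above and wild type below, bands marking the genes and a dotted line at 1. In both panels the posterior genes from Hoxa9 on reach values above 3. The stretch of Hoxa3 and Hoxa4 lies lower in wild type than in Phc2 L307R. Some single probes near 0 fall at the same places, and others are near 0 in only 1 genotype.

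Several dips were shared by the genotypes. A Hoxa10 probe at chr6:52163355-52163407 stood at 0.04 in Phc2 L307R and 0.01 in wild type, although the probe before it stood at 3.63 in Phc2 L307R and 2.97 in wild type. A Hoxa6 probe at chr6:52136911-52136955 had -0.03 in Phc2 L307R and -0.04 in wild type. In Hoxa11, the probe at chr6:52174334-52174393 had 0.36 in Phc2 L307R and 0.15 in wild type. Input was well above background at these 3 probes on both arrays.

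In the scanner files the genotype difference varied along the cluster. Of the 320 probes, 215 (67.2%) were higher in Phc2 L307R than in wild type and 105 were lower, where 45.4% of all named probes and 43.2% of those at 1 or more in both genotypes were higher. The median difference was 0.30, and the single probes ranged from -1.96 to 3.47. A difference of at least 1 was seen at 40 probes (12.5%, against 3.19% of all named probes), and one of -1 or below at 14 (4.38%, against 3.81%). Spearman's correlation of the difference with position was -0.61 over the 320 probes, given as a description of neighbouring probes on one pair of arrays. The anterior genes Hoxa2 to Hoxa5 had a median probe difference of 0.67, with 103 of 111 probes higher. Hoxa6 had 0.32, with 35 of 40 probes higher. The posterior genes Hoxa9 to Hoxa13 had -0.04, with 77 of 169 probes higher.

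Dim input moved with part of this difference. Where input and immunoprecipitate were well above background on both arrays (229 probes), the median difference was 0.21, and at the other 91 probes it was 0.55. Of the 40 probes with a difference of at least 1, 21 were among those 91, as were 6 of the 14 at -1 or below. The part of dim input in the difference was not tested. The order along the cluster was also there at the 229 bright probes, with medians of 0.62 for Hoxa2 to Hoxa5, 0.25 for Hoxa6 and -0.10 for Hoxa9 to Hoxa13, and a Spearman correlation with position of -0.69.

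The value tables deposited with the series give another wild-type profile, and the sign of most HoxA differences depends on which one is used. The Phc2 L307R table held the scanner ratios of the same array, within 0.02 (log2) at every HoxA probe. The wild-type table did not: over the whole array it had a correlation of 0.85 with the wild-type scanner ratios, and at 293 of 320 HoxA probes it was higher than they were, by a median of 0.94. Its source array or processing was not given in the sources used here. In the value tables the median HoxA probe was 2.90 in wild type, the median difference was -0.60, and 83.8% of the probes were lower in Phc2 L307R, where 54.3% of all named probes were. The median differences there were -0.41 for Hoxa2 to Hoxa5, -0.28 for Hoxa6 and -0.77 for Hoxa9 to Hoxa13, so the anterior genes were not the highest, and Spearman's correlation with position was -0.37. Both comparisons use the same Phc2 L307R array, so their values are set side by side below and are not independent.

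**Figure D2:**
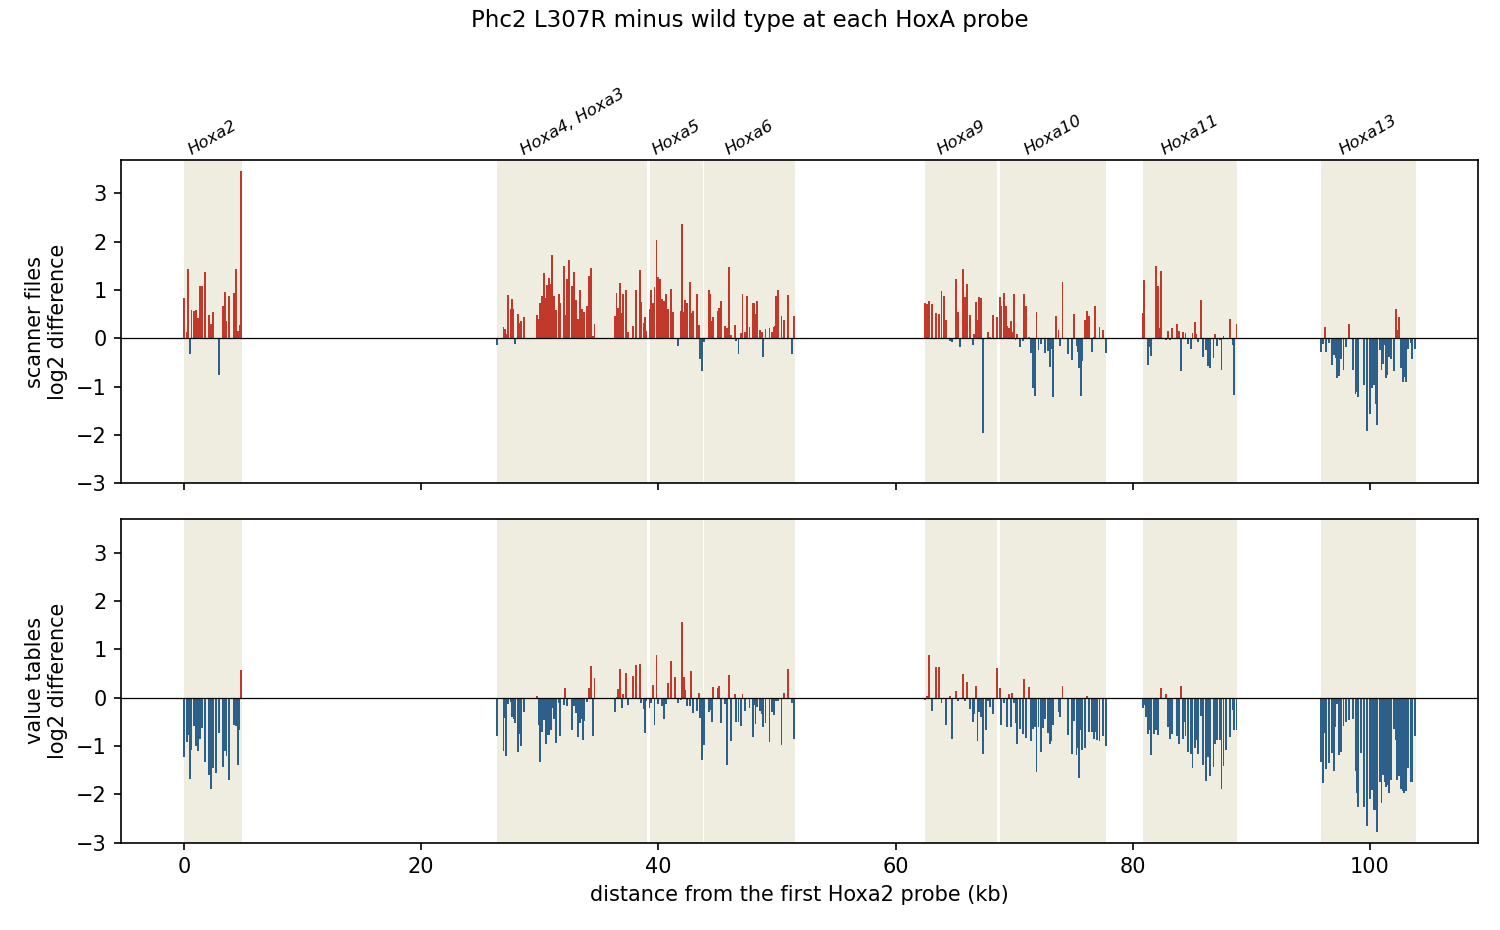
Bars give the log2 difference, Phc2 L307R minus wild type, at each HoxA probe against distance in kb from the first Hoxa2 probe, with the scanner files above and the value tables below (red above 0, blue below 0). In the scanner files the bars stand mostly above 0 from Hoxa2 to Hoxa9 and below 0 in Hoxa13, and in the value tables they stand mostly below 0 in every gene but lowest in Hoxa13.

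Hoxa2, which patterns the hindbrain and the second branchial arch, is the anterior end of the stretch measured. Its 25 probes averaged 2.17 ± 0.71 in Phc2 L307R and 1.47 ± 0.64 in wild type (SD over probes), with 22 higher and 3 lower in Phc2 L307R. The mean difference was 0.70 ± 0.78 and, in the value tables, -1.06, with 24 of 25 probes lower. This was the gene where the wild-type sets lay furthest apart, by a mean of 1.76. One probe, chr6:52096909-52096968, stood out with 3.58 in Phc2 L307R and 0.11 in wild type. Its input was not well above background on either array and the scanner's own error in wild type was 2.55, so its difference of 3.47 rests on a poorly measured ratio.

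The region beside Hoxa2 also differed in sign between the sets. Its 30 probes are named jointly for Hoxa2 and the transcript 5730596B20Rik and are not among the 322. They averaged 2.37 ± 0.71 in Phc2 L307R and 1.76 ± 0.68 in wild type, a difference of 0.61 ± 0.55. That difference was -0.91 in the value tables.

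Hoxa3, needed for the thymus, the parathyroid and structures of the neck, had, with Hoxa4, the lowest mean Ring1B levels of the cluster in the scanner files. In Phc2 L307R the means of Hoxa4 and Hoxa6 were nearly equal, at 1.825 and 1.834. In the wild-type value table Hoxa6 (2.15) lay just below Hoxa4 (2.16). Hoxa3 has only 8 probes here, which lie among and beside those of Hoxa4. They averaged 1.48 ± 0.44 in Phc2 L307R and 1.05 ± 0.22 in wild type. The difference was 0.43 ± 0.48, against -0.35 in the value tables.

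Hoxa4, which acts in the patterning of the neck vertebrae, was higher in Phc2 L307R at nearly every probe. Its 51 probes averaged 1.83 ± 0.49 in Phc2 L307R and 1.05 ± 0.41 in wild type, and 50 of them were higher in Phc2 L307R. The mean difference was 0.77 ± 0.42, and 49 probes stood at 1 or more in Phc2 L307R, where 26 did in wild type. The 41 bright probes had a mean difference of 0.76 and the other 10 a mean of 0.82. The value tables gave -0.33, with 39 of 51 probes lower.

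The longest run of neighbouring probes higher in Phc2 L307R in the scanner files held 64 probes, from Hoxa4 through Hoxa3 into Hoxa5, chr6:52120239-52133528. It was picked by sign, so every probe in it is higher by construction. Over these 13.3 kb the mean was 1.92 ± 0.58 in Phc2 L307R and 1.10 ± 0.41 in wild type, a difference of 0.82 ± 0.43. Within it, the probe at chr6:52122694-52122752 had 2.38 in Phc2 L307R and 1.27 in wild type, and the probe at chr6:52123042-52123101 had 2.52 in Phc2 L307R and 1.40 in wild type. The same 64 probes had in the value tables a mean difference of -0.22. The longest runs in the value tables were lower ones, 71 probes from Hoxa11 to Hoxa13 and 24 in Hoxa2. The longest higher runs there held 3 probes.

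Hoxa5, which is required for lung and airway development, held more Ring1B than Hoxa3 and Hoxa4. Its 27 probes averaged 2.33 ± 0.78 in Phc2 L307R and 1.60 ± 0.55 in wild type, with 24 of 27 higher in Phc2 L307R. The mean difference was 0.74 ± 0.64. It was 0.03 in the value tables, and Hoxa5 was the only member whose mean was not below 0 there. The median there was below 0, at -0.11, with 17 of 27 probes lower. The highest probe of Hoxa5, chr6:52134094-52134143, stood at 4.34 in Phc2 L307R and 1.96 in wild type with dim input on both arrays. In the value tables that probe had a difference of 1.56, the largest of Hoxa5 there. Bright probes of Hoxa5 had a mean difference of 0.57 over 18 probes, and the other 9 had 1.07.

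Hoxa6, a gene of the thoracic region of the axis, lies next along the cluster. Its 40 probes averaged 1.83 ± 0.73 in Phc2 L307R and 1.43 ± 0.62 in wild type. The difference was 0.41 ± 0.41, with 35 probes higher, and -0.31 in the value tables. These means cover both the dips near 0 and a highest probe of 3.16 in Phc2 L307R and 2.26 in wild type.

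**Figure D3:**
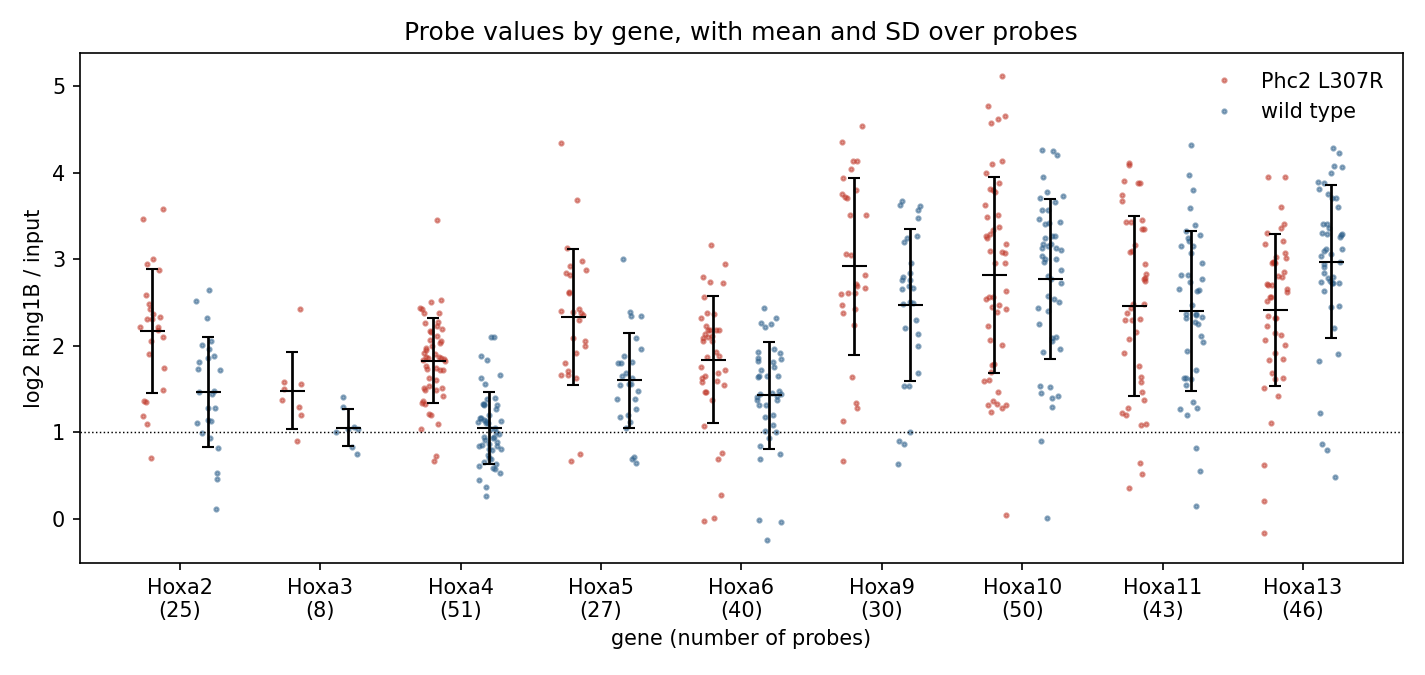
Points are the log2 Ring1B over input ratios of single probes for each gene (number of probes in brackets), Phc2 L307R left in red and wild type right in blue, with bars for the mean and the SD over probes. The Phc2 L307R mean is the higher one for Hoxa2 to Hoxa9, the means differ by 0.05 for Hoxa10 and 0.06 for Hoxa11, and the Hoxa13 mean is 2.41 in Phc2 L307R and 2.97 in wild type.

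In the scanner files the posterior genes carried the highest Ring1B levels, whereas in the wild-type value table the Hoxa2 mean (3.23) lay above that of Hoxa9 (3.02). Hoxa9, a regulator of blood stem cells and of the posterior axis, averaged 2.92 ± 1.02 in Phc2 L307R and 2.47 ± 0.88 in wild type over 30 probes. The difference was 0.45 ± 0.62 with 24 probes higher, and -0.11 in the value tables, where 20 of 30 were lower. It was the member where the wild-type sets lay closest, 0.55 apart on average. The most negative difference of the cluster was in Hoxa9, at chr6:52159449-52159493, with 1.28 in Phc2 L307R and 3.24 in wild type, and input was dim there in wild type.

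Hoxa10, needed for the uterus and the lumbar spine, held the highest probe of the cluster in Phc2 L307R, chr6:52160884-52160943, with 5.12 in Phc2 L307R and 4.25 in wild type. Another height further along, at chr6:52168243-52168302, had 4.78 in Phc2 L307R and 4.20 in wild type. Between them lie the dip near 0 described above and probes below 2 in both genotypes. The mean over 50 probes was 2.82 ± 1.13 in Phc2 L307R and 2.77 ± 0.92 in wild type, with 26 higher and 24 lower and a difference of 0.05 ± 0.56. The value tables gave -0.61, with 43 of 50 lower.

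Hoxa11, which shapes the forearm and lower leg and acts in the kidney and uterus, held the highest wild-type probe of the cluster in the scanner files. That probe, chr6:52177016-52177075, stood at 4.11 in Phc2 L307R and 4.32 in wild type. In the wild-type value table it had 5.27, and a Hoxa13 probe, chr6:52188004-52188057, was the highest with 5.30. Over the 43 Hoxa11 probes the mean was 2.46 ± 1.04 in Phc2 L307R and 2.40 ± 0.92 in wild type, a difference of 0.06 ± 0.54 with 22 higher and 21 lower. The value tables gave -0.82, with 40 of 43 lower.

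Hoxa13, which forms the hand and foot and the distal urogenital tract, was the only member with a mean difference below 0 in the scanner files, although Hoxa10 and Hoxa11 lay on either side of 0 under other settings. Its 46 probes averaged 2.41 ± 0.88 in Phc2 L307R and 2.97 ± 0.88 in wild type, and 41 of them were lower in Phc2 L307R. The mean difference was -0.56 ± 0.55. In the value tables it was -1.53 ± 0.63, with all 46 probes lower. Probes at 3 or more numbered 11 in Phc2 L307R and 25 in wild type. The 40 probes that were bright on both arrays had a mean difference of -0.55, and the other 6 had a mean of -0.61.

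The most negative differences of Hoxa13 lay inside the region. The longest run of lower probes in the scanner files, also picked by sign, held 21 neighbours, chr6:52190663-52194190. Its mean was 2.44 ± 0.81 in Phc2 L307R and 3.31 ± 0.78 in wild type over 3.53 kb. The difference was -0.87 ± 0.52 there, and -1.86 in the value tables. Its most negative probe, at chr6:52191868-52191927, had 2.14 in Phc2 L307R and 4.07 in wild type, and the next probe, chr6:52192091-52192142, had 2.71 in Phc2 L307R and 4.28 in wild type. Input was bright at both probes on both arrays. At the edge of the region, the 3 probes of chr6:52188004-52188353 had 3.95, 3.17 and 3.95 in Phc2 L307R and 4.23, 3.29 and 3.71 in wild type.

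Set against each other member, the mean difference of Hoxa13 was the lowest in both sets of values. Its distance from the other 8 members ran from -0.60 (Hoxa10) to -1.33 (Hoxa4) in the scanner files, and from -0.47 (Hoxa2) to -1.56 (Hoxa5) in the value tables. Both sets share the Phc2 L307R array, and with 1 array a genotype the distance was not tested. Evx1, the next homeobox gene beyond Hoxa13, had a mean difference of -0.92 ± 0.61 over its 46 probes and -1.91 in the value tables.

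For a single value per promoter, a window of 3 successive probes spanning at most 2000 bp was taken, the one whose mean over both genotypes was highest. A window of 1 or more counted as bound. The call of lower or higher in Phc2 L307R was made for bound promoters at a difference of at least 1 with all 3 probes on the same side. By that rule all 9 members were bound in Phc2 L307R, where 38.3% of 8913 promoters of the design were. In wild type 8 of 9 were bound, where 45.7% of promoters were, and Hoxa3 stood just short of the line at 0.96. No member was called lower (0 of 9, against 3.94% of 4566 bound promoters) and none was called higher (0 of 9, against 1.66%). When the value tables were used, the number called lower was 3 of 9, against 7.95% of 4468 bound promoters. The windows of 7 members were above 0 and those of 2 below, where 36.2% of bound promoters were above 0. The median window difference was 0.79 for HoxA and -0.17 for all bound promoters.

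Hoxa10 had the highest window in Phc2 L307R, with 5.12, 4.14 and 4.66 at its 3 probes, against 4.25, 3.46 and 3.71 in wild type. All 3 were higher in Phc2 L307R, by a mean of 0.83 ± 0.14 (SD over 3 probes). The Hoxa9 window, chr6:52155723-52156229, had 4.14, 4.54 and 4.35 in Phc2 L307R and 3.63, 3.56 and 3.48 in wild type, a difference of 0.79 ± 0.24. Both windows were above percentile 98.9 of the design in each genotype, and in the value tables their differences were -0.23 for Hoxa9 and -0.16 for Hoxa10.

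At the anterior end the Hoxa2 window, chr6:52094184-52094620, had 3.0, 2.94 and 2.88 in Phc2 L307R and 2.52, 2.64 and 2.32 in wild type. The probes of a genotype lay close together and the 2 sets did not overlap, with a difference of 0.44 ± 0.13. In the wild-type value table the same 3 probes stood at 4.60, 4.84 and 4.34, above all of the Phc2 L307R values, and the difference was -1.65. The sign of the Hoxa2 difference depends on the choice of the wild-type set.

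Hoxa4 came nearest to the size rule. Its window, chr6:52122105-52122511, had 2.06, 2.19 and 3.46 in Phc2 L307R and 1.33, 1.31 and 2.10 in wild type, a difference of 0.99 ± 0.33, which was -0.84 in the value tables. The Hoxa5 window had a difference of 0.93 ± 1.31 with 1 of its 3 probes lower, and the dim probe described above gave the largest part of it. The Hoxa3 window, chr6:52130515-52130925, had 2.43, 1.58 and 1.38 in Phc2 L307R and 1.00, 0.82 and 1.06 in wild type. Its difference was 0.83 ± 0.56 and stayed above 0 in the value tables, at 0.11. Hoxa6 had 0.35 ± 0.62, which is inside the scatter of its probes.

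The windows of the last 2 genes did not separate the genotypes. The Hoxa11 window, chr6:52176547-52177075, had 4.09, 3.68 and 4.11 in Phc2 L307R and 3.97, 3.79 and 4.32 in wild type, a difference of -0.07 ± 0.17. The Hoxa13 window had -0.05 ± 0.27 and fell on the edge probes given above. With the window that was highest in wild type, Hoxa13 had 2.60 in Phc2 L307R and 4.11 in wild type, a difference of -1.51 that met the rule. In the value tables the windows differed by -1.04 for Hoxa11 and -1.28 for Hoxa13.

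**Figure D4:**
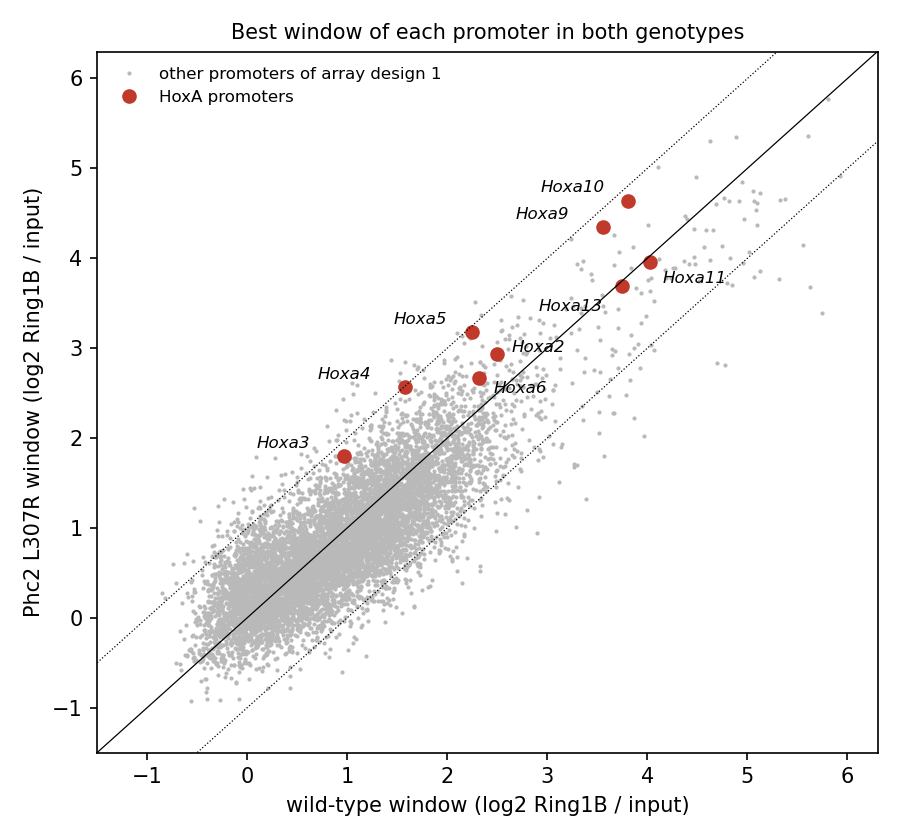
Each grey point is the best window of a promoter of array design 1, with Phc2 L307R on the vertical axis and wild type on the horizontal axis in log2 Ring1B over input, and red points are the 9 HoxA promoters. The solid line marks equal values and dotted lines a difference of 1, and all HoxA promoters lie between the dotted lines, 7 above the solid line and Hoxa11 and Hoxa13 just below it.

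The HoxD cluster, which sits on the same arrays, gave other values, and the distance between the clusters was not tested. The median over genes of the mean probe difference was 0.43 for the 9 HoxA members, where it was -0.45 for 8 HoxD genes and Evx2. The median window difference was 0.79 for HoxA and -0.11 for HoxD and Evx2. In the value tables the medians of the mean probe differences were -0.35 for HoxA and -1.43 for HoxD and Evx2, so the HoxA values were the higher ones in both sets, which share the Phc2 L307R array. Of the HoxD genes and Evx2, only Hoxd1 was called lower, with 1.63 in Phc2 L307R and 2.73 in wild type. That is 1 of 9, against 3.94% of the 4566 bound promoters of design 1.

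Of 11 names listed for genes that flank the cluster, 8 had probes. The median window difference was 0.79 for HoxA and 0.18 for these genes in the scanner files, and -0.37 for HoxA and -0.39 for these genes in the value tables. Of these 8 genes 1 was called lower, against 3.94% of the bound promoters of design 1. It was Tax1bp1, at 0.94 in Phc2 L307R and 1.96 in wild type. Skap2, on the Hoxa2 side, had 2.41 in Phc2 L307R and 1.58 in wild type, a difference of 0.83 that was -1.13 in the value tables. Among the TALE cofactors of Hox proteins, 11 of 14 names had probes on either design, with a median of -0.14, and -0.21 in the value tables. Of these 11 cofactors 1 was called lower, Meis1, with 3.09 in Phc2 L307R and 4.09 in wild type. Meis1 lies on array design 2, for which the share of promoters called lower is not given here. On design 1 that share was 3.94% of bound promoters.

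The promoters outside the Hox clusters whose pair of window values was nearest to the HoxA medians (3.18 in Phc2 L307R and 2.49 in wild type) were E130114P18Rik, Nfe2l2, Nfib, Tbx15 and Ssbp3. Their distances were 0.04 to 0.12 over 2 arrays, and the differences 0.53 to 0.66. Both follow from the way these promoters were picked.

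The direction of each gene's difference was followed through the other ways of processing. The 7 settings include the main one. Leaving out saturated probes could change nothing, since no HoxA probe was saturated. Hoxa13 had a mean difference over its probes below 0 under all 7 settings, from -1.53 in the value tables to -0.36 after loess. The Hoxa5 mean was above 0 under all 7, from 0.03 in the value tables to 0.82 after loess. In the value tables the median of Hoxa5 was -0.11, with 17 of 27 probes lower. A probe with dim input gave the largest difference of Hoxa5 there, 1.56. Hoxa2, Hoxa3, Hoxa4, Hoxa6 and Hoxa9 were above 0 under each setting that used the scanner files and below 0 in the value tables. Hoxa10 and Hoxa11 stood within 0.22 of 0 under each scanner setting, on either side, and were below 0 in the value tables.

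**Figure D5:**
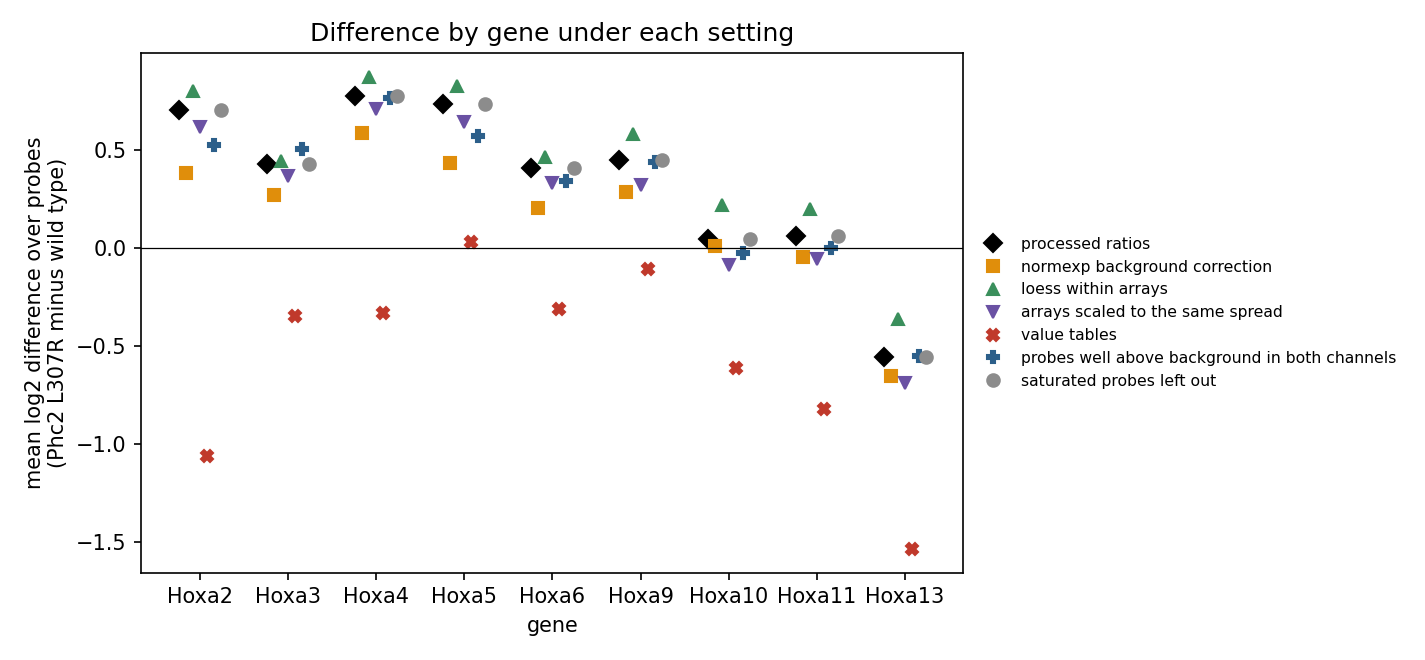
The mean log2 difference over probes, Phc2 L307R minus wild type, is plotted for each gene under 7 settings (symbols in the legend). The value tables lie lowest in every gene, Hoxa13 is below 0 throughout, and the scanner settings for Hoxa2 to Hoxa9 are all above 0.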

How the data were processed

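Ring1B ChIP-on-chip was measured in mouse embryonic fibroblasts, with 1 array per genotype and design. Spot intensity was quantified by the authors with Agilent Feature Extraction 10.7.3.1, per the file headers, which also give the log10 ratio of Cy5 (Ring1B) over Cy3 (input). Comparison with these ratios showed that the deposited value tables hold log10 ratios in the same direction. How they were centred, and where the wild-type column comes from, is not known. Design 1 had 237195 probes, with immunoprecipitate well above background at 99.1% of them in Phc2 L307R and 97.9% in wild type, and input well above background at 75.0% in Phc2 L307R and 85.7% in wild type. The number of arrays limits the precision.

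Ratios were turned to log2, spots flagged as outliers were left out, and each array was centred on its median, with no loess or quantile step. Windows were computed as the report describes, with Python 3.11.15, numpy 2.4.6 and pandas 2.3.3. Alternatives were normexp with an offset of 50 and loess (limma 3.58.1 in R 4.3.3), equal spread, the value tables, bright probes only, no saturated probes, windows of 5 probes, other choices of window, all probes, a bound line of 1.5 and a size rule of 1.5-fold.

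All 9 members are named. Lists, single probes and the most similar promoters followed rules, but members and lists were chosen with earlier results of these data known. No p-value is given, since a genotype has 1 array. One other gene name matching the rule is not reported here.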

Additional observations from a re-analysis of the deposited data

How the results depend on the processing

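The value tables turned the sign of both summary differences: the median window difference was -0.37 and the median probe difference -0.60, against 0.79 and 0.30 in the scanner files. The median window difference was 0.38 after normexp, 0.35 with the window highest in wild type and 0.43 over all probes. The cause was not tested. The number of members called lower, 0 in the scanner files, was 1 after normexp (Hoxa13), 3 in the value tables (Hoxa2, Hoxa11 and Hoxa13) and 1 if the window highest in wild type is taken (Hoxa13). The number called higher, also 0, was 4 after loess (Hoxa4, Hoxa5, Hoxa9 and Hoxa10), 1 with bright probes alone (Hoxa4), 2 for windows of 5 probes (Hoxa4 and Hoxa5), 1 if the window highest in Phc2 L307R is taken (Hoxa4) and 4 with a size rule of 1.5-fold (Hoxa3, Hoxa4, Hoxa9 and Hoxa10). Of 90 window differences under these alternatives 11 had the other sign, 6 of them in the value tables, and of 54 mean probe differences 12 did, 7 of them in the value tables. Both totals include the values with saturated probes left out, which equal the main ones because no HoxA probe was saturated. Over the bound promoters of the design, 180 were called lower and 76 higher of 4566 (3.94% and 1.66%). The counts were 169 and 78 of 4536 after loess (3.73% and 1.72%), 355 and 30 of 4468 in the value tables (7.95% and 0.671%), 70 and 2 of 2221 after normexp (3.15% and 0.09%) and 231 and 64 of 4587 with equal spread (5.04% and 1.4%). They were 93 and 18 of 2948 with bright probes alone (3.15% and 0.611%), 60 and 26 of 3426 for windows of 5 probes (1.75% and 0.759%), 311 and 16 of 4458 if the window highest in wild type is taken (6.98% and 0.359%) and 60 and 166 of 4283 for that highest in Phc2 L307R (1.4% and 3.88%). They were 17 and 12 of 594 over all probes (2.86% and 2.02%), 130 and 42 of 2345 at a bound line of 1.5 (5.54% and 1.79%), and 704 and 291 of 4566 at 1.5-fold (15.4% and 6.37%). Dim input limits the ratios at 91 of 320 HoxA probes. No paired analysis was possible because each genotype has 1 array with HoxA probes.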
